A study of Homo sapiens with 9 samples.

Results

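U937 cells labelled as an IRF2 knockout that carries pIRF2 were compared with WT U937 cells, gene by gene, to describe how far the cells with this label lay from WT and which differences were particular to them. The comparison took the 3 libraries labelled IRF2KO_pIRF2 and the 3 WT libraries, 6 of the 9 libraries of the study, and used every gene with enough reads to be tested. U937, an established line of human cells with monocytic character, is described in the series title as U937-Cas9, that is, with the nuclease used to cut a gene. The other 3 libraries, labelled IRF2KO, are given beside the comparison to show where the knockout itself stood. No treatment or time point is given for any group. The labels say neither what pIRF2 encodes nor how the IRF2 locus was edited, and they do not say whether a group is 1 clone or a pool of cells. A difference that comes with pIRF2 and a difference that belongs to a clone therefore cannot be told apart. Nothing in the labels says that replicates were separate cultures, so p-values measure only the spread between these libraries, which may be technical.

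IRF2 belongs to the interferon regulatory factors, a family of transcription factors. It binds interferon-stimulated response elements, DNA sites built of repeated GAAA letters, and is known both as an antagonist of IRF1 and as an activator that keeps some interferon-responsive genes expressed in resting cells. In monocytic cells such genes include CASP4, whose product is the cytosolic sensor of bacterial lipopolysaccharide. Complementation, in which the missing gene is put back into knockout cells, is the usual control that a change follows from loss of that gene and not from the editing or the choice of a clone.

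Letters of the kind that IRF2 is known to recognise can be seen in the promoters of 4 genes that were low in IRF2KO, IFIH1, PARP14, ERAP2 and SAMD9. They are shown as examples that hold the letters and whose levels in the libraries labelled pIRF2 are followed in the results. Other genes followed there are not shown, so the 4 do not tell how common the letters are. Each line gives 70 bases of the RefSeq promoter window on GRCh38.p14, 5′ to 3′ on the strand of the gene, with matches to the letters GAAANNGAAA in capitals. The IFIH1 stretch is chr2:162318685-162318754 on the minus strand, that of PARP14 is chr3:122680769-122680838 on the plus strand, that of ERAP2 is chr5:96876430-96876499 on the plus strand and that of SAMD9 is chr7:93118076-93118145 on the minus strand.
IFIH1: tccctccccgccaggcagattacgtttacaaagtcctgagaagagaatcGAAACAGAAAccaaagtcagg
PARP14: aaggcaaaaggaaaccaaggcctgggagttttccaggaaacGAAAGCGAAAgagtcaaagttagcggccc
ERAP2: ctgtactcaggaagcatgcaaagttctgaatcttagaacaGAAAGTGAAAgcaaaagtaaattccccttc
SAMD9: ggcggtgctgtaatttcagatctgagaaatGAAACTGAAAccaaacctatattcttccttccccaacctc
The letters were searched on both strands in the 250 bases before the start. They were present in 3.02% of 35116 RefSeq windows and in 3.36% of the 9161 tested genes that had a window. Of the 48 genes past the test in IRF2KO against WT, 33 had a window and 11 of these held the letters. Of the 9 genes past the test in the libraries labelled pIRF2 against WT, 5 had a window and 0 of these held the letters. A match is a description of the letters and not of a bound site.

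Library totals were 14824907 to 19956617 counts in WT, 16884085 to 20497549 in IRF2KO and 20539038 to 23108288 in the libraries labelled pIRF2. A floor of 3 counts was 0.13 to 0.202 CPM, that is, read counts scaled to a common library size with TMM factors. The libraries labelled pIRF2 were close to each other, with correlations of their log2 levels (Pearson's r over genes, and genes are not replicates) of 0.994 to 0.996, against 0.979 to 0.991 within WT and 0.985 to 0.993 between those groups. On the first principal component, which held 56.4% of the variance, the extremes were WT replicate 1 at -36.1 and IRF2KO replicate 2 at 52.3, while the libraries labelled pIRF2 lay between -7.3 and -1.5. Reads of mitochondrially encoded genes made up 12.7%, 12.9% and 17.1% of the WT counts and 17.3%, 17.3% and 18% of those of the libraries labelled pIRF2, so that every library labelled pIRF2 was above every WT library (exact permutation test, two-sided, p = 0.1, the smallest that 3 against 3 allows). Of 11 monocytic markers, 10 could be tested and 0 passed the test, beside 0.0781% of all tested genes. Their log2 fold changes in the libraries labelled pIRF2 against WT ran from -0.07 to 0.51. Among the defining markers, LYZ was at 546 ± 14.3 CPM in WT and 576 ± 14.5 CPM in the libraries labelled pIRF2 (SD, n = 3), and CD33 at 83.3 ± 4.64 CPM and 79.5 ± 2.77 CPM in the same order, whereas CSF1R was below 1 CPM in both groups.

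Few genes differed between the libraries labelled pIRF2 and WT past the test. Of 11517 tested genes, 9 passed the test (0.0781%), 4 of them higher (0.0347%) and 5 lower (0.0434%). The higher genes were the metallothionein gene MT2A, the leukocyte surface genes CD84 and CD52 and the nuclear receptor gene RORB. The lower genes were IRF2 itself, the butyrophilin gene BTN3A1, the ISG15-conjugating enzyme gene UBE2L6, ANXA2R and the neuropeptide gene GAL. The change was past 2-fold in 8 of the 9. In these bulk samples a lower level cannot be told apart from fewer cells that express the gene. For 10612 genes, 92.1% of those tested, the 95% interval of the difference stayed inside 2-fold in either direction. For the remaining genes a 2-fold difference in at least one direction was not excluded by the interval. An unadjusted p under 0.05 was seen for 452 genes.

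The size of this list depended on single libraries and on the tool. Without WT replicate 2 it held 3 genes, and without replicate 1, 2 or 3 of the libraries labelled pIRF2 it held 4 genes each time. Without IRF2KO replicate 2, which enters this contrast only through the filter, the scaling and the shared estimate of spread, it held 25 genes, and with DESeq2 it held 39. IRF2, MT2A and CD84 passed in each fit that left out 1 library. With only the libraries over 15% mitochondrial counts, where WT has 1 library that is assumed to vary like the other groups, 0 genes passed by edgeR and 217 had an unadjusted p under 0.05. In that fit the log2 fold changes of the 9 genes had the same signs as with all libraries. With the mitochondrial share as a term 10 genes passed, including all 9.

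**Figure D1:**
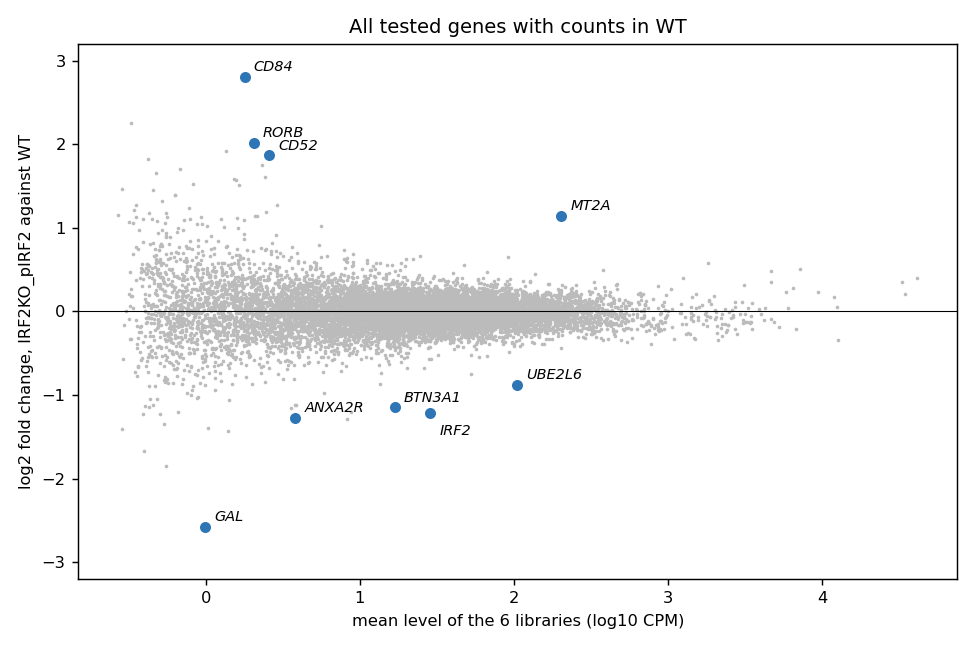
Log2 fold change of the libraries labelled IRF2KO_pIRF2 against WT (y axis) by mean level over the 6 libraries in log10 CPM (x axis), 1 grey point for each tested gene with counts in WT. The 9 genes past the test are named in blue, and CD84 at 2.81 and GAL at -2.57 lie farthest from the line at 0.

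The IRF2 transcript was looked at because the labels name this gene. IRF2 (ENSG00000168310.10, chromosome 4, 184387713 to 184474580, minus strand) was at 37.1, 39.1 and 44.1 CPM in the WT libraries, at 23.5, 25.9 and 25.5 CPM in IRF2KO and at 15.2, 18.1 and 18.4 CPM in the libraries labelled pIRF2. All 3 libraries labelled pIRF2 were below all 6 others, and the groups did not overlap. IRF2 fell 2.32-fold against WT, a log2 fold change of -1.22 ± 0.13 (SE, 95% interval -1.49 to -0.94, adjusted p = 0.0029), to 43% of the WT level. Against IRF2KO the log2 fold change was -0.53 and did not pass the test (adjusted p = 0.24). The counts thus show no gain of IRF2 reads in the libraries labelled pIRF2. IRF2KO itself kept 62.2% of the WT level, and IRF2 protein was not measured here, so the reads alone do not test either label. The sequence of pIRF2 is not given in the sources used here, and whether its transcript would have been counted as IRF2 was not tested. With only the libraries over 15% mitochondrial counts the log2 fold change was -1.36 and the adjusted p 0.16.

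4 further genes that had changed in IRF2KO were still changed in the same direction in the libraries labelled pIRF2. Together with IRF2 they make 5 genes that passed both against WT, where IRF2KO against WT had 48 such genes of 11517 (0.417%), 6 higher (0.0521%) and 42 lower (0.365%). Both comparisons use the WT libraries, so their agreement in sign is not independent evidence. All 4 lay between IRF2KO and WT. BTN3A1, UBE2L6 and MT2A had also changed against IRF2KO, where 42 genes passed (0.365%), 39 of them higher (0.339%) and 3 lower (0.026%).

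BTN3A1 (ENSG00000026950.16, chromosome 6, 26402237 to 26415216, plus strand) encodes a butyrophilin, a surface protein that takes part in the recognition of phosphoantigens by gamma delta T cells. Its level was 22.1, 22.4 and 24.8 CPM in WT, 3.8, 3.9 and 2.87 CPM in IRF2KO and at 11.6, 10.4 and 9.39 CPM in the libraries labelled pIRF2. The 3 groups did not overlap, with the libraries labelled pIRF2 in the middle. BTN3A1 fell 2.21-fold against WT (log2 fold change -1.14 ± 0.15 SE, 95% interval -1.47 to -0.82, adjusted p = 0.011), and rose against IRF2KO by 1.56 on the log2 scale (adjusted p = 0.00078). This difference from WT no longer passed without WT replicate 2 or without any 1 of the libraries labelled pIRF2, with adjusted p of 0.076 to 0.16.

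The neighbouring BTN3A3 was at 11, 14.1 and 11.6 CPM in WT and at 4.9, 5.35 and 5.67 CPM in the libraries labelled pIRF2. Its groups did not overlap, and its log2 fold change of -1.20 ± 0.20 (SE, adjusted p = 0.065) was of the size seen for BTN3A1 but did not pass, although it passed in 7 of 20 alternative fits. BTN3A2, chosen after its values were seen, had a log2 fold change of -0.67 ± 0.13 (SE, adjusted p = 0.14). The 3 BTN3A genes are near-identical over parts of their length, and reads shared between them may have been split or dropped in the counting.

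UBE2L6 (ENSG00000156587.15, chromosome 11, 57551656 to 57568284, minus strand) encodes the enzyme that passes the ubiquitin-like protein ISG15 to its targets. It was at 123, 133 and 151 CPM in WT, 28.3, 33.6 and 26.4 CPM in IRF2KO and at 71.8, 80.6 and 69.7 CPM in the libraries labelled pIRF2. Again the 3 groups did not overlap and the libraries labelled pIRF2 lay in the middle. UBE2L6 fell 1.84-fold against WT (log2 fold change -0.88 ± 0.13 SE, 95% interval -1.15 to -0.60, adjusted p = 0.029) and rose by 1.33 on the log2 scale against IRF2KO (adjusted p = 0.00056). This difference from WT no longer passed without WT replicate 2 or 3 or without any 1 of the libraries labelled pIRF2, with adjusted p of 0.082 to 0.32.

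ANXA2R (ENSG00000177721.4, chromosome 5, 43039081 to 43043170, minus strand), named as a receptor for annexin A2, was like IRF2 in that it did not pass against IRF2KO. It was at 5.25, 5.55 and 5.39 CPM in WT, 1.02, 1.72 and 1.35 CPM in IRF2KO and at 2.53, 2.23 and 1.91 CPM in the libraries labelled pIRF2. The 3 groups did not overlap, with the libraries labelled pIRF2 in the middle. ANXA2R fell 2.42-fold against WT (log2 fold change -1.27 ± 0.20 SE, 95% interval -1.71 to -0.84, adjusted p = 0.048), while the difference from IRF2KO did not pass (log2 fold change 0.70, adjusted p = 0.44). The call was close to the threshold: it was lost without any 1 of the WT libraries, of the libraries labelled pIRF2 or without IRF2KO replicate 3, with adjusted p of 0.094 to 0.36. It was also lost with a filter of at least 1 CPM in 3 libraries.

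MT2A (ENSG00000125148.6, chromosome 16, 56608199 to 56609497, plus strand) encodes a metallothionein, a small protein that binds zinc and other metals. It was the only gene of this set that was above WT, at 116, 126 and 137 CPM in WT, 447, 519 and 419 CPM in IRF2KO and at 283, 280 and 272 CPM in the libraries labelled pIRF2. The groups did not overlap, and the libraries labelled pIRF2 lay in the middle. MT2A rose 2.21-fold against WT (log2 fold change 1.14 ± 0.11 SE, 95% interval 0.90 to 1.39, adjusted p = 0.0022) and fell by 0.73 on the log2 scale against IRF2KO (adjusted p = 0.013). Of 13 metallothionein genes, 7 could be tested, 1 was higher and 0 lower, with a median log2 fold change of 0.00. Over all tested genes 0.0347% were higher and 0.0434% lower. The other tested metallothioneins did not pass, and the lowest of the 7 was at -0.04.

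3 genes differed from both WT and IRF2KO in the same direction and so were particular to the libraries labelled pIRF2: CD84 and RORB were higher and GAL was lower. Both contrasts use the libraries labelled pIRF2, so the second is no independent repeat of the first. All 3 were under 5 CPM in every group, and they were named after their values were seen.

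CD84 (ENSG00000066294.14, chromosome 1, 160541095 to 160579516, minus strand) encodes a surface receptor of the SLAM family, which binds its own kind on neighbouring leukocytes. Its level was 0.463, 0.326 and 0.514 CPM in WT, 0.227, 0.405 and 0.394 CPM in IRF2KO and at 3.09, 2.78 and 3.53 CPM in the libraries labelled pIRF2. These levels rest on 9, 5 and 10 reads in WT, 4, 8 and 7 in IRF2KO and 72, 56 and 74 in the libraries labelled pIRF2. WT and IRF2KO overlapped, and all 3 libraries labelled pIRF2 were far above both. CD84 rose 7.01-fold against WT (log2 fold change 2.81 ± 0.26 SE, 95% interval 2.23 to 3.39, adjusted p = 0.0022) and by 3.16 ± 0.28 on the log2 scale against IRF2KO (adjusted p = 0.0002).

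RORB (ENSG00000198963.10, chromosome 9, 74497365 to 74693177, plus strand) encodes a nuclear receptor known from the retina and the brain. It was at 1.08, 0.653 and 0.668 CPM in WT, 1.02, 0.557 and 0.902 CPM in IRF2KO and at 3.26, 3.17 and 3.43 CPM in the libraries labelled pIRF2. WT and IRF2KO overlapped, and the libraries labelled pIRF2 were all above them. RORB rose 4.05-fold against WT (log2 fold change 2.02 ± 0.26 SE, 95% interval 1.45 to 2.59, adjusted p = 0.011) and 3.99-fold against IRF2KO (adjusted p = 0.0034). This difference from WT no longer passed without WT replicate 2 or 3 or without any 1 of the libraries labelled pIRF2, with adjusted p of 0.067 to 0.13.

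GAL (ENSG00000069482.6, chromosome 11, 68683779 to 68691175, plus strand) encodes the neuropeptide galanin. It was at 1.34, 1.7 and 2.05 CPM in WT, 2.27, 1.67 and 1.35 CPM in IRF2KO and at 0.258, 0.248 and 0.334 CPM in the libraries labelled pIRF2, the last from 6, 5 and 7 reads. All 6 other libraries were above the 3 labelled pIRF2. GAL fell 5.96-fold against WT (log2 fold change -2.57 ± 0.34 SE, 95% interval -3.31 to -1.84, adjusted p = 0.011) and by 2.63 ± 0.33 on the log2 scale against IRF2KO (adjusted p = 0.0028). Its call against WT was lost without the same libraries as that of RORB, with adjusted p of 0.055 to 0.13.

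CD52 (ENSG00000169442.8, chromosome 1, 26317957 to 26320523, plus strand), a small glycoprotein of the lymphocyte and monocyte surface, passed only against WT. It was at 1.39, 0.979 and 0.924 CPM in WT, 2.49, 2.38 and 2.09 CPM in IRF2KO and at 4.17, 4.12 and 3.86 CPM in the libraries labelled pIRF2. The 3 groups did not overlap, with IRF2KO in the middle. CD52 rose 3.65-fold against WT (log2 fold change 1.87 ± 0.21 SE, 95% interval 1.42 to 2.32, adjusted p = 0.0041). The differences from IRF2KO (log2 fold change 0.80, adjusted p = 0.21) and between IRF2KO and WT (1.07, adjusted p = 0.087) did not pass. Without WT replicate 2 its call against WT was lost, with an adjusted p of 0.061.

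**Figure D2:**
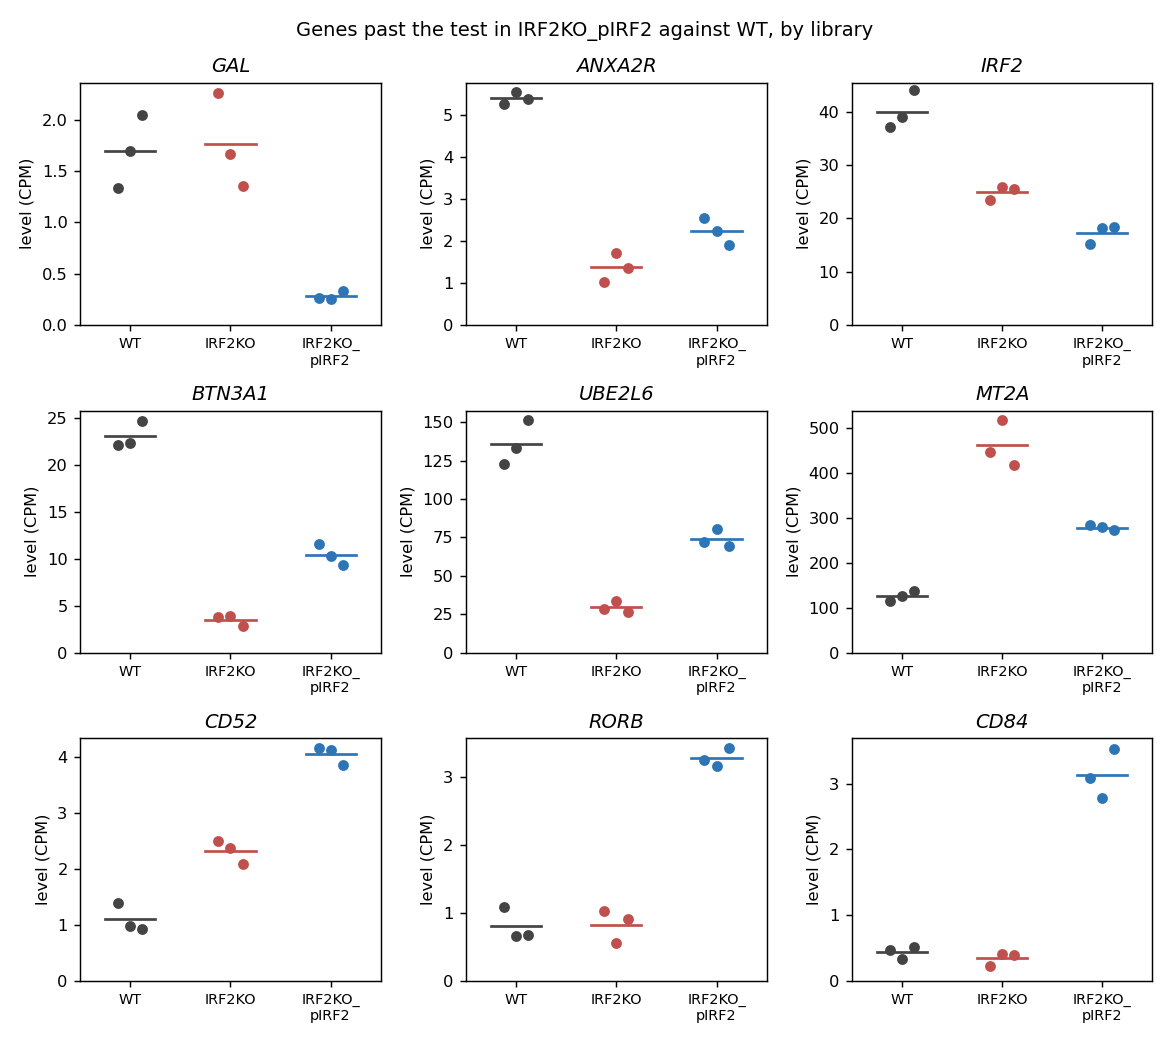
Level in CPM (y axes, each from 0) of the 9 genes past the test in each of the 9 libraries, with 1 point per library and a line at the mean of each group of 3. MT2A, BTN3A1, UBE2L6 and ANXA2R lie between WT and IRF2KO in the libraries labelled IRF2KO_pIRF2, IRF2 lies below both, and CD84, RORB and GAL stand apart from both.

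Most genes that the knockout had changed were no longer past the test in the libraries labelled pIRF2, but for many of them the WT level lay outside the interval. Of the 48 genes past the test in IRF2KO against WT, 5 passed and 43 did not. 28 of the 48 passed against IRF2KO, 25 of them among the 43. For 36 of the 43 the 95% interval, which is not adjusted for the number of genes, excluded no difference from WT, and for 24 it still held a 2-fold difference. The 42 genes that had fallen in IRF2KO were there at a median of 24.1% of the WT level, and in the libraries labelled pIRF2 at a median of 67.9%, from 36.4% to 305%. The WT libraries enter both of these shares, and genes called as lower in IRF2KO were chosen partly for high WT and low IRF2KO values. The same IRF2KO libraries enter the comparison against IRF2KO. For genes chosen in this way, passing against IRF2KO, here and in the paragraphs on single genes, is therefore no independent support.

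**Figure D3:**
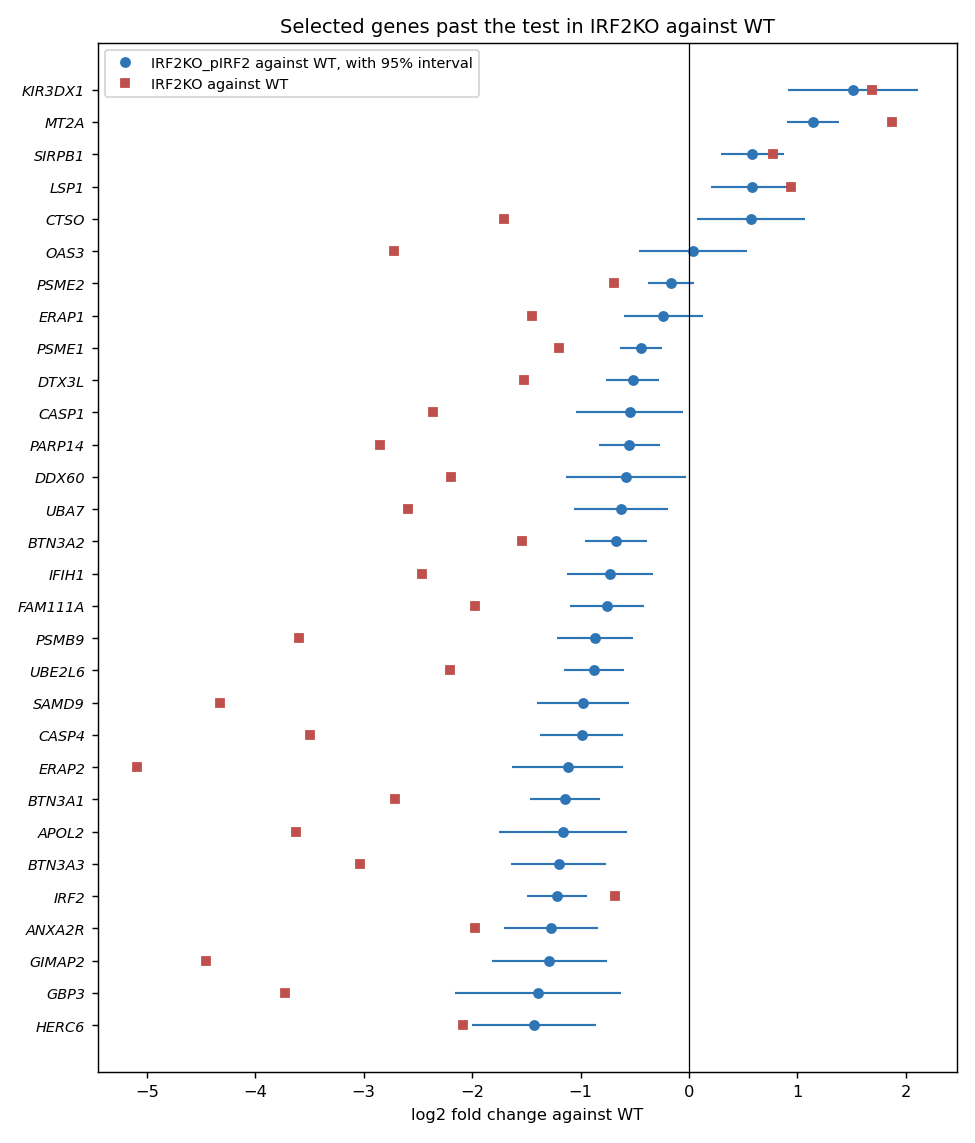
Log2 fold change against WT (x axis) of selected genes past the test in IRF2KO against WT (those named by the rule and others chosen after their values were seen, all with reads in IRF2KO), in the libraries labelled IRF2KO_pIRF2 (blue circles, bars are 95% intervals) and in IRF2KO (red squares). From PARP14 to ERAP2 the blue circles lie between the red squares and the line at 0, that of OAS3 lies at 0.04, and that of CTSO lies on the other side of it.

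The inflammatory caspases stood between IRF2KO and WT. CASP4 (chromosome 11, 104942866 to 104969436, minus strand) was at 32.1, 23.9 and 24.3 CPM in WT, 2.32, 1.82 and 2.99 CPM in IRF2KO and at 11.9, 14.5 and 14 CPM in the libraries labelled pIRF2. The 3 groups did not overlap. CASP4 rose by 2.50 on the log2 scale against IRF2KO (adjusted p = 0.00017) and stood at 50.3% of the WT level, a log2 fold change of -0.99 ± 0.18 (SE, 95% interval -1.38 to -0.61) that did not pass (adjusted p = 0.091). It passed in 5 of 20 alternative fits.

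CASP1, which encodes the protease that matures interleukin-1 beta, was at 14, 12.7 and 12.3 CPM in WT and at 7.99, 9.97 and 8.72 CPM in the libraries labelled pIRF2, against 3.57, 1.42 and 2.65 CPM in IRF2KO. It rose by 1.81 on the log2 scale against IRF2KO (adjusted p = 0.0067), and its difference from WT of -0.55 ± 0.23 (SE) did not pass (adjusted p = 1). CARD16, a neighbour of CASP1 that encodes a protein like its prodomain, had no read in any IRF2KO library and was at 0.945, 0.892 and 1.57 CPM in the libraries labelled pIRF2, at least 20.83-fold higher than the floor of 3 counts over the IRF2KO group. In WT it was at 2.21, 1.89 and 1.69 CPM, above each library labelled pIRF2, but the difference of -0.77 ± 0.28 did not pass (adjusted p = 1). CASP1 and CARD16 are near-identical over part of their length, so their counts are uncertain.

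Other members of the caspase and pyroptosis list gave no call. GSDMD, the pore-forming target of these caspases, was at 15.4, 21.2 and 24.2 CPM in WT and at 19.7, 18.7 and 17 CPM in the libraries labelled pIRF2, so the groups overlapped (log2 fold change -0.13 ± 0.21 SE, adjusted p = 1). CASP5 had 0 reads in all 9 libraries. Of the 22 genes of the list, 16 could be tested, 0 were higher and 0 lower, beside 0.0781% called over all tested genes. The median log2 fold change was -0.11, beside -0.01 over all tested genes.

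Of the genes of MHC class I peptide supply, PSMB9 and PSME1 were named by the rule. PSMB9, a catalytic subunit of the immunoproteasome, was at 18.2, 19.4 and 14.7 CPM in WT, 1.47, 1.16 and 1.69 CPM in IRF2KO and at 8.81, 10.6 and 9.25 CPM in the libraries labelled pIRF2. The 3 groups did not overlap. It rose by 2.73 on the log2 scale against IRF2KO (adjusted p = 8.6e-05) to 54.8% of WT, and its difference from WT of -0.87 ± 0.16 (SE) did not pass (adjusted p = 0.11). PSME1, a subunit of the proteasome activator PA28, was at 229, 239 and 232 CPM in WT and at 167, 174 and 174 CPM in the libraries labelled pIRF2. The spread within each of its groups was small, yet the difference of -0.44 ± 0.09 (SE) did not pass (adjusted p = 0.17).

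The aminopeptidases that trim peptides for MHC class I stood at different levels. ERAP2 was at 6.59, 4.89 and 4.01 CPM in WT, 0.17, 0.101 and 0.169 CPM in IRF2KO and at 2.19, 1.93 and 3 CPM in the libraries labelled pIRF2. It rose by 3.97 on the log2 scale against IRF2KO (adjusted p = 0.00063) and stood at 46% of WT, where the difference of -1.12 ± 0.23 (SE) did not pass (adjusted p = 0.19). ERAP1, chosen after its values were seen, stood at 84.9% of WT and also rose against IRF2KO, by 1.21 on the log2 scale (adjusted p = 0.0077). Whether ERAP1 and ERAP2 differed in their share of WT was not tested. Of the 22 genes of MHC class I presentation, 20 could be tested, 0 were higher and 0 lower, and the median log2 fold change was -0.14. In MHC class II presentation, 4 of 13 genes could be tested, 0 passed and the median was -0.18. Over all tested genes 0.0781% passed and the median was -0.01.

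Among interferon-stimulated genes, PARP14 had the smallest p-value in IRF2KO against WT. PARP14, an ADP-ribosyltransferase whose promoter letters are shown above, was at 25.3, 23.4 and 23.3 CPM in WT, 2.95, 3.44 and 3.55 CPM in IRF2KO and at 17.1, 14.8 and 17.3 CPM in the libraries labelled pIRF2. The groups did not overlap. It rose 4.94-fold against IRF2KO (adjusted p = 3.9e-05) to 68.3% of WT, and its difference from WT of -0.55 ± 0.13 (SE) did not pass (adjusted p = 0.34). DTX3L, which encodes a ubiquitin ligase, stood at 69.7% of WT (log2 fold change -0.52 ± 0.11 SE, adjusted p = 0.22).

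IFIH1, which encodes the double-stranded RNA sensor MDA5 and also carries the letters, was at 20.2, 15.5 and 15.3 CPM in WT, 3.57, 2.23 and 3.49 CPM in IRF2KO and at 10.5, 9.47 and 10.7 CPM in the libraries labelled pIRF2. It stood at 60.2% of WT, with a log2 fold change of -0.73 ± 0.18 (SE, adjusted p = 0.46), and rose by 1.73 against IRF2KO (adjusted p = 0.0018). GIMAP2, a GTPase gene of the immunity-associated family, was lower still relative to WT, at 14.3, 11.7 and 9.19 CPM in WT and at 4.34, 5.06 and 5.05 CPM in the libraries labelled pIRF2. Its groups did not overlap, and the log2 fold change of -1.29 ± 0.24 (SE) did not pass (adjusted p = 0.11), although it did in 5 of 20 alternative fits. The list of type I interferon-stimulated genes had 46 of 57 members tested, of which 0 were higher and 1, UBE2L6, was lower, beside 0.0434% lower over all tested genes, with a median log2 fold change of -0.09.

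The SAMD9 and SAMD9L genes, which lie side by side on chromosome 7 and encode related antiviral proteins, stood on opposite sides of WT. SAMD9 (93099513 to 93118023, minus strand) was at 9.16, 6.79 and 7.39 CPM in WT, 0.34, 0.253 and 0.564 CPM in IRF2KO and at 3.91, 3.57 and 4.38 CPM in the libraries labelled pIRF2. SAMD9L (93130055 to 93148369, minus strand), chosen after its values were seen, was at 1.39, 1.37 and 0.822 CPM in WT, had no read in IRF2KO and was at 3.87, 3.42 and 3.62 CPM in the libraries labelled pIRF2. Neither gene's groups overlapped: each library labelled pIRF2 was below WT for SAMD9 and above WT for SAMD9L. The difference from WT passed for neither gene, with -0.98 ± 0.19 (SE, adjusted p = 0.15) for SAMD9 and 1.61 ± 0.24 (SE, adjusted p = 0.065) for SAMD9L, and it passed in 2 and 6 of 20 alternative fits. Against IRF2KO SAMD9 rose by 3.35 on the log2 scale (adjusted p = 0.00017), and SAMD9L was at least 67.05-fold higher than the floor of 3 counts over the group (adjusted p = 0.00017).

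CTSO and OAS3, chosen after their values were seen, were also low in IRF2KO and at or above the WT level in the libraries labelled pIRF2. CTSO, which encodes a cathepsin, was at 2.37, 1.96 and 1.95 CPM in WT, 0.85, 0.354 and 0.733 CPM in IRF2KO and at 3.26, 3.17 and 2.91 CPM in the libraries labelled pIRF2. It stood at 149% of WT without overlap, and the difference of 0.57 ± 0.23 (SE) did not pass (adjusted p = 1). OAS3, an oligoadenylate synthetase gene, was at 6.13, 5.48 and 7.29 CPM in WT and at 6.23, 6.35 and 6.86 CPM in the libraries labelled pIRF2, with overlapping groups and a log2 fold change of 0.04 ± 0.23 (SE, 95% interval -0.46 to 0.53). Against IRF2KO both rose, by 2.28 for CTSO (adjusted p = 0.0018) and 2.76 for OAS3 (adjusted p = 0.00063) on the log2 scale.

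A few other genes that had risen in IRF2KO were still high, without passing. KIR3DX1, a gene like the killer-cell immunoglobulin-like receptors, was at 0.721, 0.783 and 1.03 CPM in WT and at 2.53, 2.13 and 2.62 CPM in the libraries labelled pIRF2 (log2 fold change 1.51 ± 0.27 SE, adjusted p = 0.099). SIRPB1, a myeloid receptor gene, had a log2 fold change of 0.58 ± 0.13 (SE, adjusted p = 0.33), and LSP1, a leukocyte protein of the actin skeleton, of 0.58 ± 0.17 (SE, adjusted p = 0.91). All 3 were chosen after their values were seen. In each of them the libraries labelled pIRF2 were all above WT, while those of KIR3DX1 and SIRPB1 overlapped with IRF2KO. Such separation of 3 libraries from 3 gives by itself no p below 0.1 (exact permutation test, two-sided), and its share over all tested genes was not counted.

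The surface receptor genes FCGR2B, CD22 and FCAR did not pass against WT and were chosen after their values were seen, and other genes without a call had adjusted p as low. FCGR2B, the inhibitory Fc gamma receptor, was at 1.6, 2.09 and 1.44 CPM in WT, 1.47, 1.92 and 1.41 CPM in IRF2KO and at 4.21, 3.62 and 4.48 CPM in the libraries labelled pIRF2. All libraries labelled pIRF2 were above all others, the rise against IRF2KO passed (1.35 on the log2 scale, adjusted p = 0.014), and the difference from WT of 1.28 ± 0.21 (SE) did not (adjusted p = 0.065), although it did in 5 of 20 alternative fits. FCGR2B and FCGR2C are near-identical, so the split of reads between them is uncertain. CD22, an inhibitory receptor of B cells, was at 0.875, 0.457 and 0.976 CPM in WT, 1.3, 1.57 and 1.13 CPM in IRF2KO and at 2.28, 2.48 and 2.29 CPM in the libraries labelled pIRF2 (1.57 ± 0.27 SE against WT, adjusted p = 0.065). FCAR, the receptor for IgA, was at 5.3, 5.74 and 6.73 CPM in WT and at 10, 9.92 and 9.72 CPM in the libraries labelled pIRF2 (0.74 ± 0.14 SE, adjusted p = 0.14).

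Markers of other cell types gave 0 calls, beside 0.0781% of all tested genes. Of 11 B cell markers, 6 could be tested, with a median log2 fold change of 0.23 and a range of -0.14 to 1.57. The summed level of the 11 was 20.1 to 24.4 CPM in WT, 24.9 to 35.9 CPM in IRF2KO and 25.1 to 26.9 CPM in the libraries labelled pIRF2. The members MS4A1, BLK and TNFRSF17 were at 0 in all libraries, and the summed level came from the others. Of 15 markers of T and NK cells, 4 could be tested, with a median of 0.33. Their list had a summed level of 290 to 359 CPM in WT and of 328 to 345 CPM in the libraries labelled pIRF2. The members CD3D, CD8A and LCK were at 0, and that sum came from the others. Of 16 markers of erythroid cells and megakaryocytes, 2 could be tested (median -0.01), and of 16 of epithelial cells and fibroblasts 4 (median -0.01), while EPCAM, COL1A2 and COL3A1 and the globin genes HBB, HBA1 and HBA2 were at 0. COL1A1, a collagen gene of the last list chosen after its values were seen, was at 0.566, 0.131 and 0.924 CPM in WT and at 2.1, 2.48 and 1.86 CPM in the libraries labelled pIRF2, which were all higher. Its log2 fold change of 1.91 ± 0.39 (SE, adjusted p = 0.17) did not pass, and it passed with DESeq2 (adjusted p = 0.0046). The summed level of that list was 20.1 to 23.7 CPM in WT and 18.9 to 25.6 CPM in the libraries labelled pIRF2.

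Among 12 interferon regulatory factors, 10 could be tested and 1, IRF2, was lower (median -0.03), beside 0.0434% lower over all tested genes. IRF1, known as the counterpart of IRF2, was at 5.41, 5.42 and 8.32 CPM in WT and at 8.38, 8.38 and 7.24 CPM in the libraries labelled pIRF2, with overlapping groups (0.32 ± 0.19 SE, adjusted p = 1). IRF9 had 0 reads in all 9 libraries. Of its exonic length 48.4% overlaps other annotated genes and its reads may have been dropped in the counting, so this need not mean no expression. Of 7 butyrophilins, 5 could be tested and 1, BTN3A1, was lower, beside the same 0.0434% over all tested genes, with a median of -0.67. Their summed level was 75.9 to 86.3 CPM in WT, 27.3 to 30.5 CPM in IRF2KO and 44 to 53.1 CPM in the libraries labelled pIRF2. The summed level of these genes kept the 3 groups apart, with the libraries labelled pIRF2 in the middle.

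In the lists named next, 0 members passed, beside 0.0781% of all tested genes. At so small a share, lists as short as these are likely to hold no call. A count of 0 therefore does not show that their genes were unchanged. The median log2 fold change over all tested genes was -0.01. For interferon gamma genes and guanylate-binding proteins 11 of 21 genes were tested with a median log2 fold change of -0.20, and for interferon receptors and signalling 16 of 17 with 0.01. The list of Toll-like receptors and LPS sensing had 11 of 21 tested (0.13), NF-kB cytokines and chemokines 16 of 20 (0.06), monocyte maturation and myeloid surface genes 30 of 41 (0.12), primary granule genes 11 of 13 (-0.07) and haematopoietic stem and progenitor genes 16 of 26 (-0.06). Proliferation had 25 of 25 tested (0.03), cholesterol synthesis 23 of 25 (0.07), the integrated and ER stress responses 21 of 21 (-0.16), heat shock 14 of 15 (0.10), hypoxia and glycolysis 24 of 27 (0.01), and apoptosis and survival 32 of 32 (0.04). Replication-dependent histones had 17 of 25 tested (0.16), and of 16 cancer-testis and clone-variable antigens 1 was tested (-1.20). All 13 mitochondrially encoded genes were tested, and their log2 fold changes of 0.08 to 0.58, with a median of 0.32, moved with the mitochondrial share of counts given above.

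Among 20265 identifiers, 5 had no read in any WT or IRF2KO library and at least 3 reads in each library labelled pIRF2. In the reverse direction, 0 had no read in the libraries labelled pIRF2 and at least 3 in each WT library. The libraries labelled pIRF2 had the largest totals, 20539038 to 23108288 counts against 14824907 to 20497549 in the others, and depth was not equalised. The 5 genes were picked for this pattern, so their counts are a description, and a p-value for any of them is no independent support. ABI3BP, which encodes an extracellular matrix protein, had 21, 14 and 26 reads, at least 17.11-fold higher than the floor of 3 counts over the WT group. It alone of the 5 was tested, and its rise passed against IRF2KO (adjusted p = 0.019) but not against WT (adjusted p = 0.065). Against WT it passed in 6 of 19 alternative fits. ENPP6, a phosphodiesterase gene, had 7, 8 and 8 reads (at least 6.451-fold), RUFY4 had 5, 8 and 6 (at least 5.329-fold), the interferon-inducible chaperone gene RTP4 had 5, 3 and 9 (at least 4.768-fold), and the leukotriene receptor gene CYSLTR2 had 3, 3 and 3. Those of CYSLTR2 are at the floor. ENPP6 lies on chromosome 4 at 184088706 to 184221230 on the minus strand, beyond the 3′ end of IRF2, which is read on the same strand. The genes were otherwise on chromosomes 2, 3 and 13.

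The region around CD84 was looked at because the gene stood out, so it is a description. Within 1200 kb of the CD84 start 56 genes had a read and 36 could be tested. Of these 1, CD84, passed, beside 0.0781% over all tested genes. In the window 24 were higher and 12 lower, with a median log2 fold change of 0.07, beside -0.01 over all tested genes. An unadjusted p under 0.05 was seen for 6 of the 36, CD84 among them, beside 452 of 11517. SLAMF6, a neighbour of CD84 and also of the SLAM family, was below the filter, with 1, 0 and 0 reads in WT, 0 in IRF2KO and 8, 7 and 9 in the libraries labelled pIRF2. SLAMF1 on the other side had 3 reads summed over WT, 4 over IRF2KO and 13 over the libraries labelled pIRF2, while LY9, farther on, had 1, 0 and 1. Near the far end of the window, FCRLA, a B-lineage gene of the Fc receptor-like family, had 0, 1 and 0 reads in WT and 6, 9 and 6 in the libraries labelled pIRF2.

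**Figure D4:**
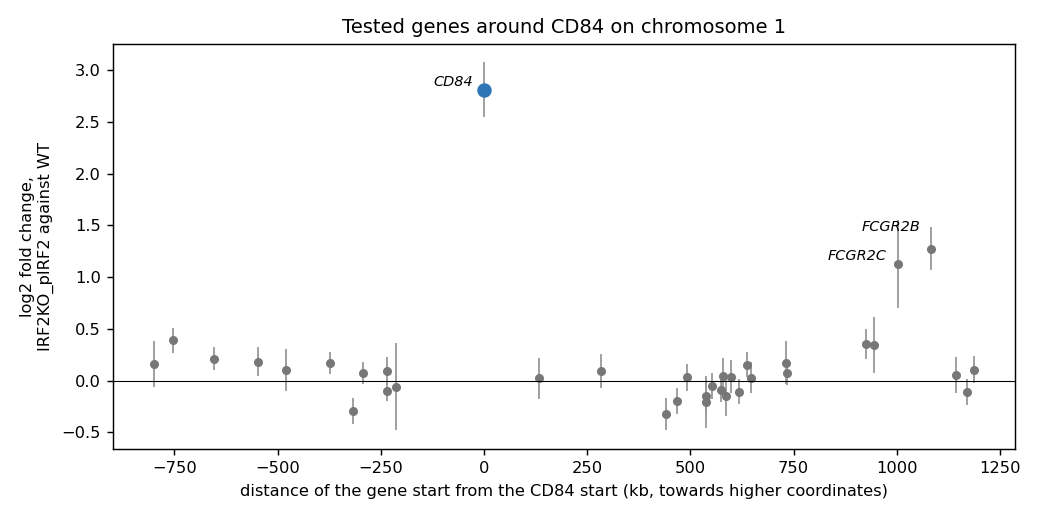
Log2 fold change of the libraries labelled IRF2KO_pIRF2 against WT (y axis, bars are SE) of the 36 tested genes by distance of their start from that of CD84 in kb (x axis). CD84 at 2.81 is the highest, most of the other tested genes lie near 0, and FCGR2B at 1.28 and FCGR2C at 1.13 lie near the right end.

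The medians of the nuclear chromosomes lay close to 0. The median log2 fold change of the tested genes of a nuclear chromosome ran from -0.10 on chromosome 13 to 0.03 on chromosome 22, beside -0.01 over all genes. Over 448 runs of 25 neighbouring tested genes the medians ran from -0.23, for the run from ZNF547 to ZNF274 on chromosome 19, to 0.15, for the run from C11orf80 to UNC93B1 on chromosome 11. In IRF2KO against WT the runs spanned -0.40 to 0.54, and in the libraries labelled pIRF2 against IRF2KO -0.50 to 0.27. The comparisons with IRF2KO include IRF2KO replicate 2, the library at the end of the first principal component.

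**Figure D5:**
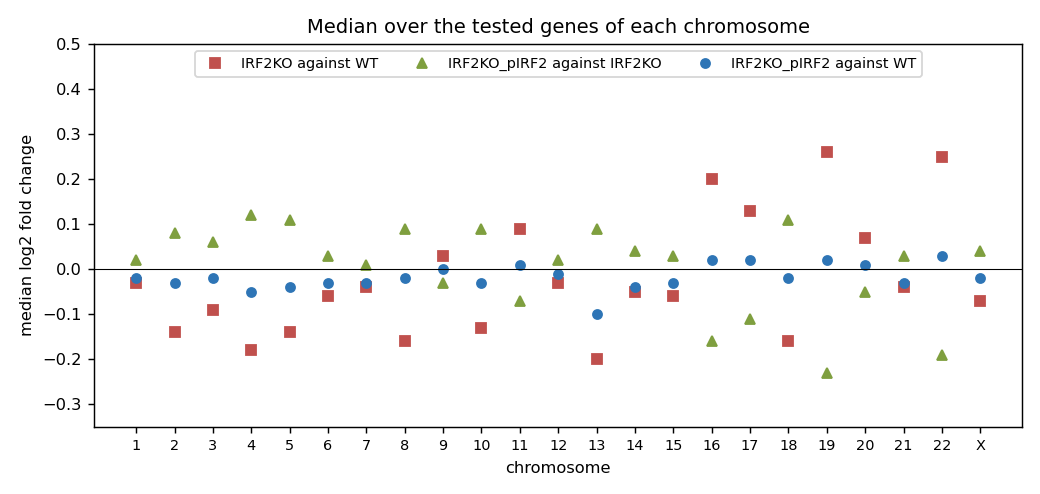
Median log2 fold change of the tested genes of each chromosome (x axis) for the 3 comparisons. The blue circles, IRF2KO_pIRF2 against WT, lie between -0.10 and 0.03, whereas on chromosome 19 the comparisons with IRF2KO lie at 0.26 and -0.23.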

How the data were processed

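Messenger RNA libraries of U937 cells were made with a Lexogen SENSE kit, per the labels' protocols. The deposited values are the authors' raw counts per gene, with Bowtie2 2.3.3, TopHat2 2.1.1, HTSeq 0.9.1 and hg38 named in the submitters' processing notes. The sources used here give neither the strand setting nor the annotation release, and reads of overlapping or near-identical genes may have been split or dropped. Of 20265 identifiers 20012 matched GENCODE 29, which gave symbols and GRCh38 coordinates, counted from 1.

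In edgeR 4.0.16 (R 4.3.3), low genes were removed by filterByExpr, libraries were scaled by TMM and 1 quasi-likelihood model without covariate was fitted to all 9 libraries. Its F-test p-values were Benjamini-Hochberg adjusted, with a threshold of 0.05. SE were derived from the F statistic, and the fit was checked on simulated data. Same-numbered WT libraries and libraries labelled pIRF2 had deviations correlated at -0.101, -0.0507 and -0.197, so numbers were not taken as pairs. Alternatives used DESeq2 1.42.0, limma 3.58.1, other filters, terms and libraries. Absence of overlap between groups is a description, since its share over all tested genes was not counted. Floors cover counting error only. For genes at 0 in a group, folds are bounds against 3 counts.

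Named genes were IRF2, CASP4, CASP1, CARD16, CASP5, GSDMD, IRF1 and IRF9. Up to a set number, called genes of at least 5 CPM without overlap and called list members were added. Genes past the test in IRF2KO against WT were also added by p, up to a set number. These either passed or did not pass in the libraries labelled pIRF2 against WT. Others were chosen after their values were seen. The comparison, the 27 lists and the rule were chosen with earlier results of these data known. Some genes are left out of the text.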

Additional observations from a re-analysis of the deposited data

How the results depend on the processing

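The log2 fold change of IRF2 against WT stayed negative in all 20 alternative fits (-1.13 to -1.27 leaving out 1 library) and passed in all but that with only the libraries over 15% mitochondrial counts (-1.36). The counts were less stable, and the causes were not tested. With DESeq2, 39 genes passed against WT, 68 against IRF2KO and 121 in IRF2KO against WT. There 13 genes were particular to the libraries labelled pIRF2, 25 changed in both groups against WT and 21 belonged to the lists. Another 94 passed in IRF2KO against WT and did not pass in the libraries labelled pIRF2 against WT, which does not place them at the WT level. Without the filter these were 18 against WT, 7 particular, 9 in both groups and 9 in lists. With only the 2 groups in the fit 16 passed, 8 in lists. With limma-voom 5 were particular. With only the libraries over 15% mitochondrial counts 0 passed, 0 were particular, in both groups or in lists, and 26 passed in IRF2KO against WT, all 26 of them in IRF2KO alone. Without the ends of the first principal component 27 passed, 8 particular, 17 in both groups and 16 in lists. All 9 genes were among those called by DESeq2, without the filter, with 2 groups, with limma-voom and without those ends. With the replicate block 7 passed and 2 were in both groups, although the numbers do not pair the samples.

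Leaving out each library in turn gave 3 to 25 genes against WT, 26 to 47 against IRF2KO and 34 to 49 in IRF2KO against WT. It gave 1 to 8 particular genes, 1 to 14 in both groups and 2 to 14 in lists. Past the test in IRF2KO against WT, but not in the libraries labelled pIRF2 against WT, were 32 to 39 genes. Without IRF2KO_pIRF2 replicate 2 the count against IRF2KO was 26.

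Of 939 gene values in alternative fits, 6 had the other sign, none of them of a gene past the test. These were OAS3 with the mitochondrial share as a term (-0.30), with only the libraries over 15% mitochondrial counts (-0.17), without WT replicate 2 (-0.05) and without IRF2KO_pIRF2 replicate 3 (-0.01), where leaving out 1 library gave at most 0.15, IRF1 with only the libraries over 15% (-0.06) and GSDMD without WT replicate 3 (0.02). With 3 libraries a group the median SE over all tested genes was 0.169, and the smallest change past the test was 0.88 on the log2 scale. Smaller changes may have been missed in genes of low and of high level.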
